A study of Mus musculus with 12 samples.

Results

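The chemokine ligands described here are the genes Ccl1, Ccl3, Ccl4, Ccl5, Ccl6, Ccl9, Ccl22, Xcl1, Cxcl9 and Cxcl10. They were chosen by name, with earlier results of these data known, and all 10 were measured, out of 18193 genes on the array. Chemokines are small secreted proteins that guide migrating leukocytes, and their names follow the spacing of the conserved cysteines (the CC, CXC and XC families). Each acts through G protein coupled receptors on the cells it attracts. Activated CD8 T cells are themselves a source of several of them, which draw monocytes, dendritic cells and further T cells towards the place where antigen is met.

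Gene expression was measured on Affymetrix mouse arrays, 1 for each of 12 samples of sorted CD8 T cells. The samples were PD-1+ Tim-3+ tumour-infiltrating lymphocytes (Tim-3+ TIL, n = 4), PD-1+ Tim-3- TIL (n = 3) and naive cells (n = 5). PD-1 (Pdcd1), Tim-3 (Havcr2) and 2B4 (Cd244a) are inhibitory or regulatory receptors of chronically stimulated T cells. Tim-3+ TIL, called exhausted in the labels, were also sorted as 2B4+, and Tim-3- TIL, called stem-like there, as 2B4-. Both came from flank tumours of B16F10-GP, a derivative of the mouse melanoma line B16F10, on day 17 and day 19 after inoculation. Naive cells came from the spleens of naive mice, so that they also differ from TIL in tissue and in the digestion and density gradient used on tumours. All groups were given as strain C57bl/c, 6 to 8 weeks old.

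The labels do not say whether replicates came from separate mice, so the p-values measure the spread between these arrays, which may be technical. The number of arrays limits the precision. Havcr2 had a log2 intensity of 11.66 ± 0.14 in Tim-3+ TIL, 7.08 ± 0.49 in Tim-3- TIL and 4.63 ± 0.23 in naive cells (SD, n = 4, 3 and 5). Cd244a averaged 11.49 ± 0.54, 4.89 ± 0.77 and 4.19 ± 0.30 in the same groups, and Pdcd1 11.77 ± 0.17, 11.37 ± 0.089 and 5.14 ± 0.31. All 9 measured CD8 T cell markers were above log2 5.71 in every group. That level is percentile 40 of the gene means; values under it may be background, and a fold change measured against such a group may understate the true difference. An earlier look at these arrays put them into 2 sets that the labels do not name. Set A holds Tim-3+ replicates 1 and 2, Tim-3- replicate 1 and naive replicates 1 and 2, and set B holds the other 7 arrays. Each group has arrays in both sets, so results were also taken within each set. In sorted bulk samples, fewer cells that express a gene and less RNA per cell cannot be told apart.

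Between the TIL populations, Ccl3, Ccl4, Ccl9 and Ccl6 were higher in Tim-3+ TIL, while Cxcl10 and Xcl1 were lower. These are 6 of 10 ligand genes past an adjusted p of 0.05 (limma, Benjamini-Hochberg over all 18193 genes), against 13.5% of all genes. By direction, 4 of 10 were higher, against 7.77% of all genes, and 2 of 10 were lower, against 5.77%. All 6 changed at least 2-fold, which 4.26% of all genes did with a call. The arrays of the TIL groups did not overlap for 8 of 10 ligands, against 22.7% of all genes. The median log2 change over the 10 ligands was 0.88, and over all genes 0.011. As the 10 were chosen with earlier results known, such counts and medians describe these genes and do not test chemokine ligands as a class. Against naive cells, 6 of 10 ligand genes were past the threshold in Tim-3- TIL (34.4% of all genes) and 8 of 10 in Tim-3+ TIL (41.5% of all genes). All of these calls were for higher levels in TIL. Among all genes, 16.1% were higher and 18.3% lower in Tim-3- TIL, and 20.1% were higher and 21.4% lower in Tim-3+ TIL. Calls of at least 2-fold covered the same 6 and 8 ligands, against 12% and 14.3% of all genes. Arrays did not overlap for 6 of 10 ligands between Tim-3- TIL and naive cells (35.1% of all genes) and for 8 of 10 between Tim-3+ TIL and naive cells (37.3%). None of the 10 was lower than in naive cells by limma in either TIL population, and the count of lower genes was also 0 at an unadjusted p under 0.05. The comparisons share arrays: both TIL groups were set against the same 5 naive arrays.

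**Figure D1:**
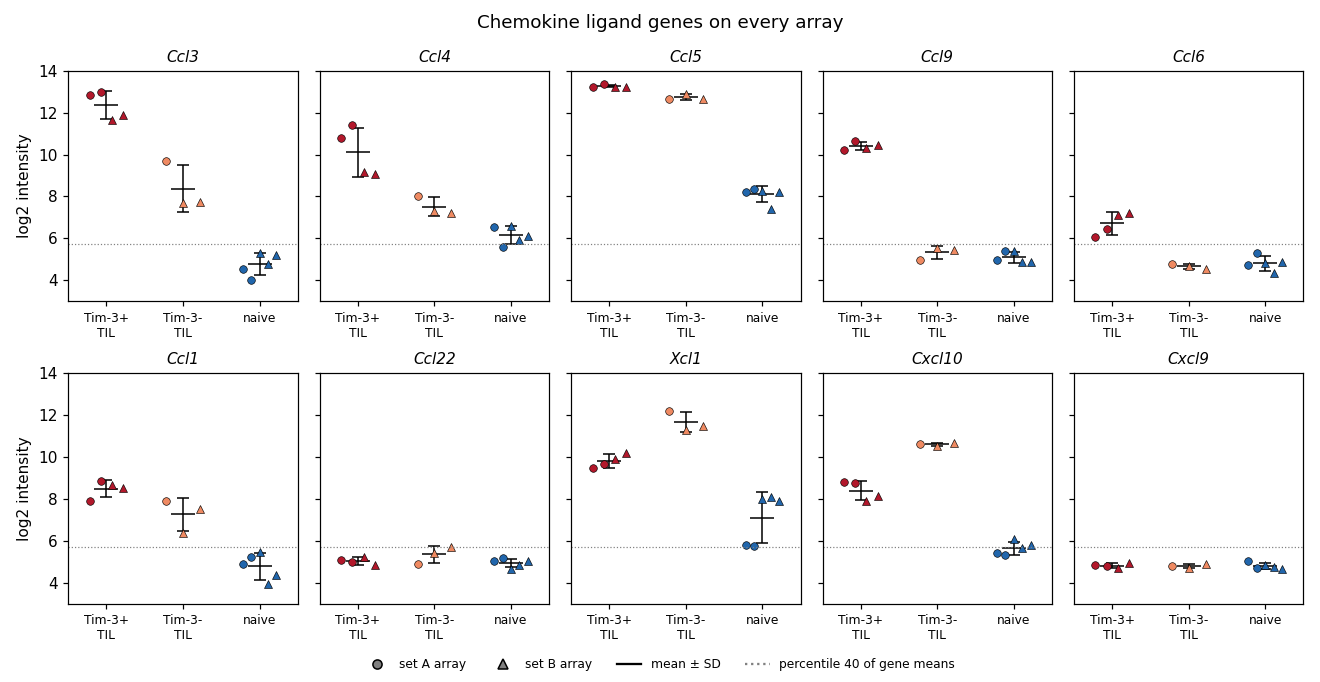
Log2 intensity (vertical axis) of the 10 chemokine ligand genes on each array, with Tim-3+ TIL, Tim-3- TIL and naive cells from left to right. Circles are set A arrays, triangles set B arrays, bars the mean ± SD, and the dotted line is log2 5.71; Ccl9 stands at 10.41 in Tim-3+ TIL, against 5.33 in Tim-3- TIL and 5.10 in naive cells.

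Ccl3, Ccl4 and Ccl5 encode CC chemokines that attract monocytes, NK cells and activated T cells. Ccl3 (macrophage inflammatory protein alpha) had log2 intensities of 12.85, 13.00, 11.64 and 11.90 on the 4 Tim-3+ arrays. It had 9.67, 7.71 and 7.75 on the 3 Tim-3- arrays, and 4.52, 4.02, 5.30, 4.76 and 5.20 on the 5 naive arrays. The 3 groups did not overlap, with Tim-3+ TIL highest and naive cells lowest, and the set A arrays were the higher ones in both TIL groups. The mean was 12.35 ± 0.67 in Tim-3+ TIL, against 8.37 ± 1.12 in Tim-3- TIL and 4.76 ± 0.52 in naive cells. Ccl3 rose by 3.98 ± 0.47 (SE) in Tim-3+ over Tim-3- TIL, which is 15.7-fold (adjusted p = 5.86e-05), the change of rank 12 from the top among 18193 genes. Within set A the log2 change was 3.25 and within set B 4.05, and without Tim-3- replicate 1 it was 4.62. Over naive cells, Tim-3- TIL were higher by 3.62 ± 0.45 (adjusted p = 2.17e-05) and Tim-3+ TIL by 7.59 ± 0.41 (adjusted p = 2.56e-09). The rise in Tim-3- TIL was 5.40 within set A and 2.64 within set B, and 2.97 without Tim-3- replicate 1. The rise in Tim-3+ TIL was 8.66 within set A and 6.69 within set B.

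Ccl4 (macrophage inflammatory protein beta), the chromosomal neighbour of Ccl3, had the same order of group means with smaller steps. Its log2 intensities were 10.81, 11.39, 9.18 and 9.07 in Tim-3+ TIL, 8.04, 7.30 and 7.19 in Tim-3- TIL, and 6.52, 5.59, 6.59, 5.94 and 6.11 in naive cells. No array of one group overlapped those of another, although the 2 set A arrays of Tim-3+ TIL stood well above the 2 set B arrays. The difference between the sets in Tim-3+ TIL was 1.97, which was of rank 9 by size among 18193 genes in that group. Ccl4 rose by 2.60 ± 0.48 in Tim-3+ over Tim-3- TIL, or 6.08-fold (adjusted p = 0.00220), with 3.06 within set A and 1.88 within set B. Its rise in Tim-3- TIL over naive cells was 1.36 ± 0.46 (adjusted p = 0.0337). It no longer passed when Tim-3- replicate 1, 2 or 3 or naive replicate 2, 4 or 5 was left out, with adjusted p between 0.0517 and 0.132. With the replicate number as a block it was also lost (1.14, adjusted p = 0.0776), while a block for set A and set B gave 1.41 (adjusted p = 0.00974). In Tim-3+ TIL the rise over naive cells was 3.96 ± 0.42 (adjusted p = 2.92e-06).

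Ccl5 (RANTES), known as a product of memory and effector CD8 T cells, was high in all TIL. Its log2 intensities were 13.24, 13.37, 13.24 and 13.23 in Tim-3+ TIL, 12.63, 12.91 and 12.67 in Tim-3- TIL, and 8.23, 8.35, 8.27, 7.42 and 8.23 in naive cells. The 3 groups did not overlap, and naive replicate 4 was the low array among naive cells. Ccl5 rose by 4.64 ± 0.18 in Tim-3- TIL over naive cells, or 24.9-fold (adjusted p = 1.94e-10), and by 5.17 ± 0.16 in Tim-3+ TIL over naive cells, or 36.0-fold (adjusted p = 1.15e-11). Between Tim-3+ and Tim-3- TIL it differed by 0.53 ± 0.19 (adjusted p = 0.0787), which did not pass. Without naive replicate 4, whose spread enters the fit shared by all groups, the same difference had an adjusted p of 0.00316, and with only the TIL arrays in the fit it was 0.0134. With the replicate number as a block the difference was 0.65 (adjusted p = 0.0208), and after a further quantile normalization it was 0.58 (adjusted p = 0.04997).

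Ccl9 and Ccl6 encode CC chemokines of mice that act through the receptor Ccr1 and are best known as products of myeloid cells. Ccl9 had log2 intensities of 10.21, 10.64, 10.33 and 10.47 in Tim-3+ TIL, 4.97, 5.55 and 5.46 in Tim-3- TIL, and 4.96, 5.38, 5.39, 4.89 and 4.87 in naive cells. All 4 Tim-3+ arrays were high, and the other 8 lay together below log2 5.71. Ccl9 rose by 5.08 ± 0.18 in Tim-3+ over Tim-3- TIL (33.9-fold, adjusted p = 9.67e-10), and the Tim-3- level may be background. This change was of rank 5 from the top among 18193 genes. Tim-3- TIL differed from naive cells by 0.23 ± 0.17 (adjusted p = 0.334), with a 95% interval between -0.13 and 0.59. The dimmer of the gene's probe sets, at 7.91 ± 0.46 in Tim-3+ TIL and 4.88 ± 0.32 in Tim-3- TIL, gave a log2 difference of 3.03.

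Ccl6 was far dimmer on its probe set. Its log2 intensities were 6.07, 6.45, 7.11 and 7.22 in Tim-3+ TIL, 4.78, 4.70 and 4.54 in Tim-3- TIL, and 4.74, 5.31, 4.82, 4.32 and 4.88 in naive cells. The Tim-3+ arrays were again the only ones above log2 5.71 and did not overlap the others; here set B arrays were the higher. Ccl6 rose by 2.04 ± 0.26 in Tim-3+ over Tim-3- TIL (adjusted p = 1.22e-04) and by 1.90 ± 0.23 over naive cells (adjusted p = 1.10e-05). Tim-3- TIL differed from naive cells by -0.14 ± 0.25 (adjusted p = 0.711). Within set A the difference between the TIL groups was 1.48, and within set B 2.55. The second Ccl6 probe set had means under log2 5.71 in all groups and a log2 difference of 1.79 between the TIL groups.

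**Figure D2:**
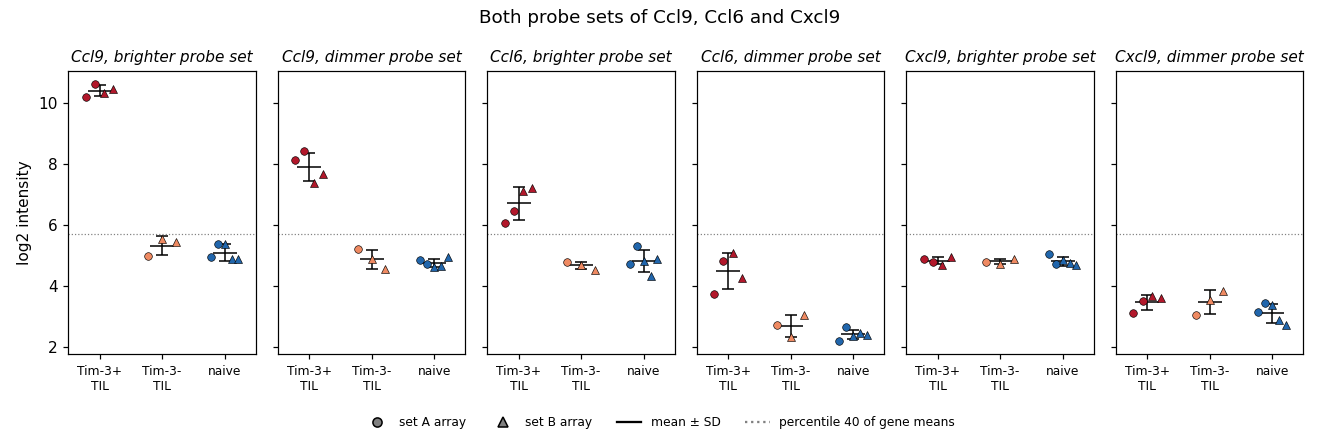
Log2 intensity (vertical axis) of both probe sets of Ccl9, Ccl6 and Cxcl9 on each array, in Tim-3+ TIL, Tim-3- TIL and naive cells from left to right. Symbols are as in the plot of all ligand genes: bars are the mean ± SD and the dotted line is log2 5.71. For Ccl9 both probe sets were higher in Tim-3+ TIL, by 5.08 and 3.03 over Tim-3- TIL, while for Cxcl9 all arrays stayed below the line.

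In the RefSeq order of protein-coding genes, Ccl5, Ccl9, Ccl6, Ccl3 and Ccl4 lie next to one another on chromosome 11, and Ccl1 lies apart on the same chromosome. Windows of 300 bases around the start of a gene (250 before it and 50 after it) were available from RefSeq, build GRCm38.p6, for 8 of the 10 ligands. Local alignment of all 28 pairs of these windows gave the highest score to Ccl6 and Ccl9, with 59 of 74 aligned columns identical (79.7%). The aligned stretch runs from -59 to 14 in Ccl6 and from -18 to 48 in Ccl9, counted from 0 at the annotated start. These windows are shown because both genes were higher in Tim-3+ TIL and neither passed the test between Tim-3- TIL and naive cells. Both lie on the minus strand, Ccl9 at chr11:83578587-83578886 and Ccl6 at chr11:83593038-83593337. Capitals mark matches on either strand to the TATA box letters TATAAA, to the AP-1 motif TGANTCA (N is any base), to the NF-kappaB consensus, and to 4 further motifs named with the Cxcl10 window.
Ccl9: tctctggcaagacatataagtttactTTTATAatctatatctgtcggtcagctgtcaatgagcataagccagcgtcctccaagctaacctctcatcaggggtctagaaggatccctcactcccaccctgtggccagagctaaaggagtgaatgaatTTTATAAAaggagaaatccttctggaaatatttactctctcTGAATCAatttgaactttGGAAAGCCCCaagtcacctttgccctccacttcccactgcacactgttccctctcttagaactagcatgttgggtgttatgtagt
Ccl6: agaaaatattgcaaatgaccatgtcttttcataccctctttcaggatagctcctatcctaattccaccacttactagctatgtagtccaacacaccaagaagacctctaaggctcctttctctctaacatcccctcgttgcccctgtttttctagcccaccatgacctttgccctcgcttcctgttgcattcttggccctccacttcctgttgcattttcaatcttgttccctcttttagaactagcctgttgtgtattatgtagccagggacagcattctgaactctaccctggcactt
The Ccl9 window holds the TGANTCA motif at -53 to -47, an NF-kappaB match at -35 to -26 and TATAAA matches, of which a pair overlaps around -90. The Ccl6 window holds none of the letters searched. Over 32851 promoter windows, TATAAA was present in 13.6%, TGANTCA in 7.81% and the NF-kappaB consensus in 4.51%. A match is a description of the letters and not a measured binding site.

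Ccl1 and Ccl22 encode ligands of Ccr8 and Ccr4, receptors found on regulatory and helper T cells. Ccl1 had log2 intensities of 7.92, 8.86, 8.65 and 8.51 in Tim-3+ TIL, 7.90, 6.39 and 7.50 in Tim-3- TIL, and 4.89, 5.22, 5.49, 3.94 and 4.38 in naive cells. All TIL arrays were above all naive arrays, and the lowest Tim-3+ array was only just above the highest Tim-3- array. Ccl1 rose by 2.48 ± 0.37 in Tim-3- TIL over naive cells (adjusted p = 1.08e-04) and by 3.70 ± 0.34 in Tim-3+ TIL over naive cells (adjusted p = 6.43e-07). Between Tim-3+ and Tim-3- TIL it differed by 1.22 ± 0.39 (adjusted p = 0.0522), which did not pass. The adjusted p ran between 0.0257 and 0.260 when 1 array was left out, and passed without Tim-3+ replicate 1, Tim-3- replicate 1, naive replicate 3 or naive replicate 4. It also passed with the replicate number as a block (1.37, adjusted p = 0.0391) and in 4 other alternatives with all arrays, of which array weights gave the lowest adjusted p, 0.0141. Within set A the difference was 0.48 (adjusted p = 0.514) and within set B 1.63 (adjusted p = 0.0727).

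Ccl22, known from dendritic cells and macrophages, had mean log2 intensities of 5.04 ± 0.17 in Tim-3+ TIL, 5.35 ± 0.41 in Tim-3- TIL and 4.95 ± 0.20 in naive cells. All 3 means lay under log2 5.71 and the groups overlapped. The difference between Tim-3+ and Tim-3- TIL was -0.31 ± 0.18 (adjusted p = 0.322), and without Tim-3- replicate 1 it was -0.53 (adjusted p = 0.0420). Tim-3- TIL differed from naive cells by 0.40 ± 0.17 (adjusted p = 0.0873, and 0.00671 without Tim-3- replicate 1). Tim-3+ TIL differed from naive cells by 0.088 (95% interval between -0.25 and 0.42, adjusted p = 0.692).

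Xcl1 (lymphotactin) encodes the ligand of Xcr1, a receptor of cross-presenting dendritic cells. Its log2 intensities were 9.47, 9.69, 9.89 and 10.22 in Tim-3+ TIL, 12.22, 11.30 and 11.50 in Tim-3- TIL, and 5.82, 5.75, 8.01, 8.09 and 7.88 in naive cells. Tim-3- TIL held the highest arrays, Tim-3+ TIL the middle ones, and the groups did not overlap. The naive arrays lay at 2 separate levels, the 2 set A arrays low and the 3 set B arrays high. That difference of -2.21 (set A minus set B) was the largest by size of all 18193 genes within naive cells. Xcl1 rose by 4.56 ± 0.52 in Tim-3- TIL over naive cells (adjusted p = 9.35e-06), with 6.44 within set A and 3.40 within set B. Tim-3+ TIL were higher than naive cells by 2.71 ± 0.48 (adjusted p = 3.36e-04), with 3.80 within set A and 2.06 within set B. Tim-3+ TIL stood at -1.86 ± 0.54 relative to Tim-3- TIL (adjusted p = 0.0357), with -2.64 within set A (adjusted p = 0.00113) and -1.35 within set B (adjusted p = 8.87e-04). A block for set A and set B gave -1.71 (adjusted p = 0.0207). The call was lost in 6 of 12 fits that left out 1 array, namely without Tim-3- replicate 1, 2 or 3 or Tim-3+ replicate 1, 2 or 3. The adjusted p in those 12 fits reached 0.120.

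Cxcl10 and Cxcl9 encode interferon-induced ligands of Cxcr3, the receptor that leads effector and memory T cells into inflamed tissue. Cxcl10 had log2 intensities of 8.79, 8.77, 7.90 and 8.15 in Tim-3+ TIL, 10.64, 10.55 and 10.68 in Tim-3- TIL, and 5.42, 5.31, 6.08, 5.66 and 5.79 in naive cells. The groups did not overlap, and the 3 Tim-3- arrays lay close together at the top. Relative to Tim-3- TIL, Cxcl10 fell by 2.22 on the log2 scale in Tim-3+ TIL (SE 0.22, adjusted p = 1.22e-05), which is 4.65-fold lower. Within set A the log2 change was -1.86 and within set B -2.58. Cxcl10 rose by 4.97 ± 0.21 in Tim-3- TIL over naive cells (adjusted p = 6.12e-10), or 31.4-fold, and by 2.75 ± 0.19 in Tim-3+ TIL over naive cells (adjusted p = 4.01e-08), or 6.75-fold. Cxcl9, a close relative of Cxcl10, averaged 4.82 ± 0.11 in Tim-3+ TIL, 4.80 ± 0.086 in Tim-3- TIL and 4.81 ± 0.15 in naive cells. These means all lay under log2 5.71, with 95% intervals of the log2 difference between -0.22 and 0.26 for Tim-3+ against Tim-3- TIL and between -0.24 and 0.22 for Tim-3- TIL against naive cells.

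Cxcl9 and Cxcl10 lie on chromosome 5 with Art3 between them. Their windows are shown because the pair differed in these data although both genes are known interferon targets. Both lie on the minus strand, Cxcl10 at chr5:92348840-92349139 and Cxcl9 at chr5:92328030-92328329. Besides the motifs above, the interferon-stimulated response element (by its name), TTCNNNGAA (a STAT motif), TGACGTCA (a CREB motif) and GGAAAA (an NFAT motif) were searched on both strands, and capitals mark all matches.
Cxcl10: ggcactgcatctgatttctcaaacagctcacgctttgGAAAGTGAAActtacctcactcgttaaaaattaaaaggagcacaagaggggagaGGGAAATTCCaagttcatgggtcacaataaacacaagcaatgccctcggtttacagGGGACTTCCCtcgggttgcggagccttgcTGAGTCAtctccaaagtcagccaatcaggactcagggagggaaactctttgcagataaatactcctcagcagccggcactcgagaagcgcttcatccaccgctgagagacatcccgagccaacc
Cxcl9: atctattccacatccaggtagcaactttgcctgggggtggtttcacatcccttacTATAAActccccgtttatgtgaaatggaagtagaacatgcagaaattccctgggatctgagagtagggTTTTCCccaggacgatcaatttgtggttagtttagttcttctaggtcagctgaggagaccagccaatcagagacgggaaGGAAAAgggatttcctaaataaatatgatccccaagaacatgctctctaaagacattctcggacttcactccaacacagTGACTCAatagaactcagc
The Cxcl10 window holds the interferon-stimulated response element on the opposite strand at -213 to -204, NF-kappaB matches at -159 to -150 and at -103 to -94, and TGANTCA at -74 to -68. The Cxcl9 window holds TATAAA at -195 to -190, GGAAAA on the opposite strand at -127 to -122 and on the same strand at -48 to -43, and TGANTCA at 31 to 37. Of the 8 windows, 1 held the interferon-stimulated response element, against 3.44% of 32851 windows, 2 held NF-kappaB, and 3 held GGAAAA (23.4%). None held TTCNNNGAA (8.30%) or TGACGTCA (1.79%). The Ccl9 and Cxcl9 windows were 2 of 8 with TATAAA, and those of Cxcl9, Cxcl10 and Ccl9 were 3 of 8 with TGANTCA.

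**Figure D3:**
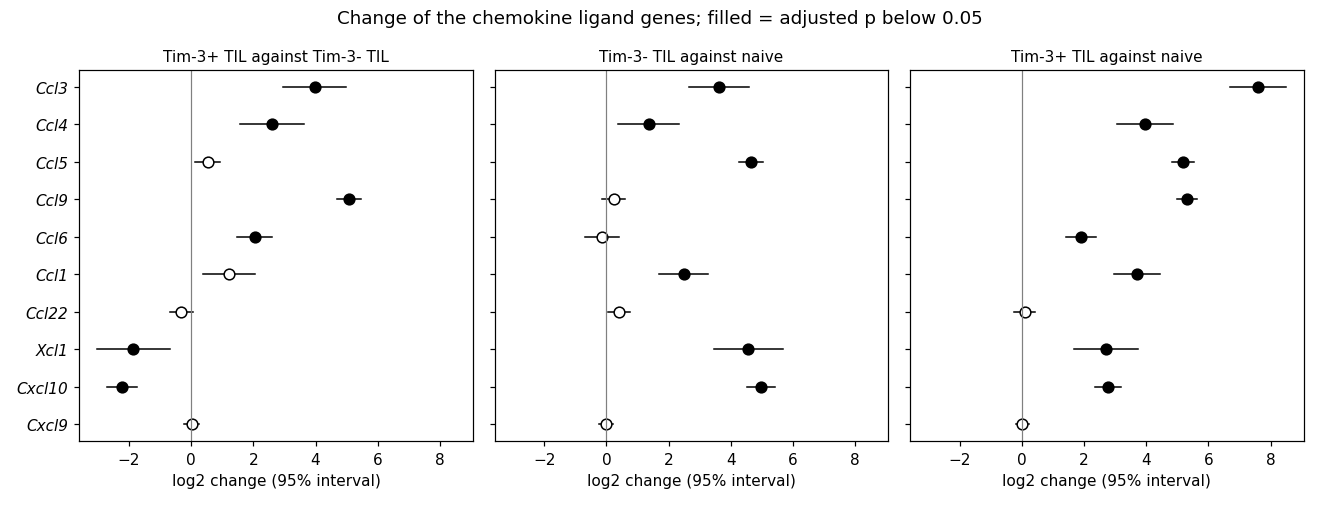
Log2 change (horizontal axis, dots with 95% intervals) of the 10 ligand genes in Tim-3+ against Tim-3- TIL, Tim-3- TIL against naive cells and Tim-3+ TIL against naive cells; filled dots have an adjusted p below 0.05. Xcl1 and Cxcl10 lie left of 0 between the TIL groups and right of 0 against naive cells, at -1.86, 4.56 and 2.71 for Xcl1.

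Genes of 6 receptors that bind these ligands were read in the same cells. Of these 6, 2 rose and 2 fell in Tim-3+ relative to Tim-3- TIL. Cxcr3, the receptor of Cxcl9 and Cxcl10, had log2 intensities of 8.40, 8.89, 8.52 and 8.32 in Tim-3+ TIL, 10.73, 11.46 and 11.10 in Tim-3- TIL, and 7.58, 7.55, 7.67, 7.29 and 8.05 in naive cells. The groups did not overlap, with Tim-3- TIL highest. Cxcr3 fell by 2.56 on the log2 scale in Tim-3+ relative to Tim-3- TIL (adjusted p = 1.17e-06), and rose by 3.47 in Tim-3- TIL over naive cells (adjusted p = 6.21e-09). Tim-3+ TIL were higher than naive cells by 0.90 (adjusted p = 7.06e-04).

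Ccr4, the receptor of Ccl22, averaged 4.65 ± 0.67 in Tim-3+ TIL, 6.41 ± 0.60 in Tim-3- TIL and 5.85 ± 0.40 in naive cells. In Tim-3+ TIL its log2 change was -1.76 relative to Tim-3- TIL (adjusted p = 0.00381) and -1.21 relative to naive cells (adjusted p = 0.00562). Within set A these calls were lost (-1.45 with adjusted p = 0.129 and -1.19 with adjusted p = 0.0640). Ccr8, the receptor of Ccl1, averaged 8.25 ± 0.28 in Tim-3+ TIL, 8.68 ± 0.46 in Tim-3- TIL and 3.20 ± 0.25 in naive cells. It rose by 5.04 in Tim-3+ TIL (adjusted p = 5.68e-11) and by 5.48 in Tim-3- TIL (adjusted p = 1.55e-10) over naive cells. Between Tim-3+ and Tim-3- TIL it differed by -0.44 (adjusted p = 0.235).

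Ccr1, which binds Ccl3, Ccl5, Ccl6 and Ccl9, and Ccr3, which binds Ccl5, had group means below log2 5.71 throughout. Between Tim-3+ and Tim-3- TIL, Ccr1 differed by 1.35 (adjusted p = 0.0104, lost without Tim-3- replicate 3 at 0.0586), with 0.59 within set A. Ccr3 differed by 0.58 (adjusted p = 0.0337), with 0.45 within set A. The Ccr3 call was lost in 4 of 12 fits without 1 array, with adjusted p up to 0.165. These left out Tim-3+ replicate 2 or 3 or Tim-3- replicate 1 or 3. It was also lost within set B (0.71, adjusted p = 0.0947) and with only the TIL arrays in the fit (adjusted p = 0.0837). Xcr1, the receptor of Xcl1, had means between 4.01 and 4.21 in the 3 groups.

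**Figure D4:**
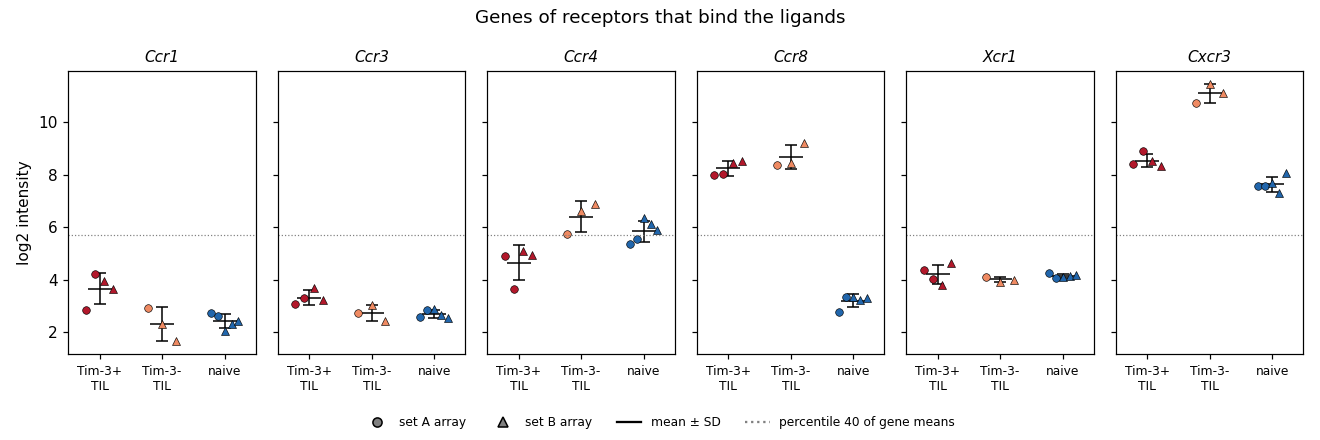
Log2 intensity (vertical axis) of 6 receptor genes on each array, in Tim-3+ TIL, Tim-3- TIL and naive cells from left to right; circles are set A arrays, triangles set B arrays, bars the mean ± SD, and the dotted line is log2 5.71. Cxcr3 is highest in Tim-3- TIL at 11.10, against 8.53 in Tim-3+ TIL, and Ccr8 lies above the line only in TIL.

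Of 25 measured ligands outside the 10, none rose in Tim-3+ relative to Tim-3- TIL in the limma test and 3 fell, against 7.77% and 5.77% of all genes. Their median log2 change was -0.037, against 0.88 over the 10. At an unadjusted p under 0.05, 1 was higher and 4 were lower. The clearest was Cxcl13, the ligand of Cxcr5 that draws B cells, with 5.37 ± 0.33 in Tim-3+ TIL and 7.75 ± 0.20 in Tim-3- TIL. It fell by 2.38 on the log2 scale (adjusted p = 2.24e-06), and rose by 2.61 in Tim-3- TIL over naive cells (adjusted p = 1.19e-07). Cxcl11, a further Cxcr3 ligand, fell by 0.95 and Cx3cl1 fell by 0.76 in Tim-3+ relative to Tim-3- TIL. The Cxcl11 means were 2.93 in Tim-3+ TIL, 3.88 in Tim-3- TIL and 3.17 in naive cells. Every array was at a level that may be background, so Cxcl11 was not shown to be expressed in these cells. Among 15 measured other chemokine receptors, 3 rose and 4 fell in Tim-3+ relative to Tim-3- TIL, against 7.77% and 5.77% of all genes. Cxcr6, a receptor of resident T cells, rose by 2.24 and Ccr6, known from helper T cells and B cells, fell by 4.55.

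Lists of genes tied to ligand regulation were counted in the same way, against 7.77% higher and 5.77% lower of all genes between the TIL groups. Of 16 measured interferon gamma induced genes, 2 rose and 5 fell in Tim-3+ relative to Tim-3- TIL, with a median log2 change of -0.26 against 0.011 over all genes. In Tim-3- TIL against naive cells, 2 rose and 6 fell. Of 15 genes of NFAT and NR4A output, 12 rose and 1 fell in Tim-3- TIL over naive cells (16.1% and 18.3% of all genes), while in Tim-3+ TIL over naive cells 11 were higher and 2 lower (20.1% and 21.4%). Between Tim-3+ and Tim-3- TIL, 2 of the 15 rose and 4 fell. Csf1, which supports macrophages, rose by 3.23 and Il2, the T cell growth factor, fell by 2.62 between the TIL groups. Ifng, the interferon that induces Cxcl9 and Cxcl10, averaged 11.85 ± 0.24 in Tim-3+ TIL, 10.67 ± 0.47 in Tim-3- TIL and 3.75 ± 0.79 in naive cells. Between the TIL groups it differed by 1.18 ± 0.38 (adjusted p = 0.0536).

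Markers of other cells were measured beside the ligands, and the intensities of each list were summed per array. The sums without 1 named marker were added after the values were seen. Of 17 monocyte and macrophage markers, 1 rose (Cd14) and 1 fell (Cd68) in Tim-3+ relative to Tim-3- TIL. Over all genes, 7.77% rose and 5.77% fell. Cd14 averaged 5.21 ± 0.33 in Tim-3+ TIL and 4.31 ± 0.04 in Tim-3- TIL (adjusted p = 0.00778), both under log2 5.71. The means of Lyz2 and Adgre1 lay under that level in every group, although Lyz2 reached 6.97 on Tim-3+ replicate 4. Cd68 averaged 7.46 ± 0.28 in Tim-3+ TIL and 8.28 ± 0.12 in Tim-3- TIL (adjusted p = 0.0203). The summed list lay between 620 and 730 in Tim-3+ TIL, 703 and 815 in Tim-3- TIL and 554 and 664 in naive cells. Without Cd68 it lay between 457 and 540 in Tim-3+ TIL, 411 and 472 in Tim-3- TIL and 442 and 535 in naive cells. Of 9 measured neutrophil markers, only Ltf rose in Tim-3+ TIL, by 3.26 over Tim-3- TIL (adjusted p = 5.63e-07), and the other 8 did not pass. The neutrophil sums lay between 387 and 649 in Tim-3+ TIL, 237 and 258 in Tim-3- TIL and 252 and 361 in naive cells. Without Ltf they were 210 to 242 in Tim-3+ TIL, 215 to 232 in Tim-3- TIL and 223 to 332 in naive cells. The part of Cd14, Ltf and the cells they mark in the Ccl3, Ccl6 and Ccl9 results was not tested.

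Of 12 measured dendritic cell markers, 3 fell in Tim-3+ relative to Tim-3- TIL, against 5.77% of all genes. Among them were Cd74 and Ccr7, of which T cells express Ccr7 too. The list summed to between 1712 and 3097 in Tim-3+ TIL, 6932 and 8709 in Tim-3- TIL and 4689 and 5731 in naive cells. Without Ccr7 the sums were 993 to 1344 in Tim-3+ TIL, 1293 to 2673 in Tim-3- TIL and 765 to 1109 in naive cells. Cd74 averaged 8.36 ± 0.63 in Tim-3+ TIL, 9.98 ± 0.84 in Tim-3- TIL and 7.17 ± 0.52 in naive cells. It fell by 1.62 in Tim-3+ relative to Tim-3- TIL (adjusted p = 0.0160) and rose by 2.80 in Tim-3- TIL over naive cells. Of the 12 markers, 9 had means above log2 5.71 in Tim-3- TIL, and 7 did in Tim-3+ TIL and in naive cells. Itgax and Batf3 had means above it in Tim-3- TIL only. Itgax averaged 5.28 ± 0.35 in Tim-3+ TIL, 6.33 ± 0.78 in Tim-3- TIL and 4.37 ± 0.43 in naive cells. Batf3 averaged 5.60 ± 0.19, 5.98 ± 0.28 and 5.60 ± 0.29 in the same groups. Flt3, Xcr1 and Cd209a had means below log2 5.71 in every group. Of 5 NK cell markers, 2 rose and 1 fell in Tim-3+ relative to Tim-3- TIL, against 7.77% and 5.77% of all genes. Fcer1g and Tyrobp rose and Eomes fell. Ncr1, Klra8 and Tyrobp had means below log2 5.71 in every group. Tyrobp averaged 5.66 ± 0.26 in Tim-3+ TIL, 4.96 ± 0.18 in Tim-3- TIL and 5.70 ± 0.30 in naive cells. The list summed to 1260 to 1551 in Tim-3+ TIL, 1778 to 1952 in Tim-3- TIL and 462 to 596 in naive cells. Eomes, also a T cell gene, fell by 0.97 in Tim-3+ relative to Tim-3- TIL. Fcer1g, an adaptor of activating receptors, averaged 8.59 ± 0.29 in Tim-3+ TIL and 6.04 ± 0.33 in Tim-3- TIL, and rose by 2.54 (adjusted p = 5.13e-06). Without Eomes the NK cell sums were 379 to 567 in Tim-3+ TIL, 100.2 to 136 in Tim-3- TIL and 98.4 to 140.1 in naive cells. The part of these lists in the ligand results was not tested.

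Of 9 melanoma markers, 6 were higher in Tim-3+ TIL than in naive cells and 1 was lower (Pmel), against 20.1% and 21.4% of all genes. In Tim-3- TIL against naive cells 2 were higher and 1 lower (16.1% and 18.3% of all genes). Tyrp1 averaged 6.77 ± 1.57 in Tim-3+ TIL, 6.15 ± 1.03 in Tim-3- TIL and 3.11 ± 0.17 in naive cells, and Dct rose by 2.92 in Tim-3+ TIL and by 2.24 in Tim-3- TIL over naive cells. The list summed to between 385 and 1377 in Tim-3+ TIL, 475 and 763 in Tim-3- TIL and 475 and 622 in naive cells. Without Pmel the sums were 307 to 1202 in Tim-3+ TIL, 329 to 606 in Tim-3- TIL and 249 to 285 in naive cells, so that every TIL array was above every naive array. Tyrp1 and Dct had higher means in both TIL groups than in naive cells, as several ligands did. Within Tim-3+ TIL they were lowest on replicate 2, at 4.67 and 4.92, where Ccl1, Ccl3, Ccl4, Ccl5 and Ccl9 were highest. Ccl6, Xcl1 and Cxcl10 were highest on other Tim-3+ arrays. Within Tim-3- TIL, Tyrp1 and Dct were highest on replicate 3, at 7.34 and 7.19, and so were Cxcl10, at 10.68, and Ccl22. There Ccl1, Ccl3, Ccl4, Ccl6 and Xcl1 were highest on replicate 1, and Ccl5 and Ccl9 on replicate 2. The part of Tyrp1, Dct and the cells they mark in the ligand rises over naive cells was not tested. Of 5 CD4 and regulatory T cell markers, 3 rose in Tim-3+ TIL (Cd4, Zbtb7b and Ikzf4) and 4 in Tim-3- TIL (also Foxp3) over naive cells. Over all genes, 20.1% and 16.1% rose in these comparisons. Foxp3 averaged 6.93 ± 0.16 in Tim-3+ TIL, 7.94 ± 0.09 in Tim-3- TIL and 7.09 ± 0.18 in naive cells. The list summed to between 1465 and 1926 in Tim-3+ TIL, 1331 and 1467 in Tim-3- TIL and 626 and 698 in naive cells. Without Ikzf4 the sums were 480 to 510 in Tim-3+ TIL, 579 to 624 in Tim-3- TIL and 350 to 396 in naive cells. Its part in the rises of Ccl1 and Ccr8 was not tested. The 7 measured B cell markers summed to between 225 and 247 in Tim-3+ TIL, 287 and 288 in Tim-3- TIL and 618 and 821 in naive cells.

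Genes with the pattern most like each ligand over the 12 arrays were listed by Pearson's r, as a description, since groups and sets of arrays are shared by all points. Ccl9 was closest to Rasd2 (r = 0.996), Cd200r4 and the granzyme gene Gzmf (both 0.994). Ccl5 was closest to S100a4 (0.997), Ccl3 to Il12rb1 (0.992), Ccl4 to Themis2 (0.985) and Ccl1 to Fars2 (0.983). Cxcl10 was closest to Itgb1 (0.990) and Eomes (0.986), and Xcl1 to Rnf19a (0.977) and Mrps6 (0.975), while Ccl6 was closest to Ceacam1 (0.979). Ccl22 and Cxcl9 had no close match, with highest r of 0.871 (Evx1) and 0.836 (Gm7969). Among the ligands themselves, Xcl1 and Cxcl10 had r = 0.94 over the 12 arrays and 0.38 after group means were taken out. Ccl3 and Ccl4 had r = 0.96 over the 12 arrays and 0.76 after group means were taken out. That was not particular to this pair. With group means taken out, Cxcl10 had r = 0.78 with Ccl4, 0.70 with Ccl3 and -0.69 with Ccl6, and Ccl3 had -0.72 with Ccl22. The differences between set A and set B were not taken out.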

How the data were processed

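Gene expression was measured on 12 arrays of sorted mouse CD8 T cells, with 45101 probe sets per array. The authors deposited linear intensity values, made with RMA and affy per the submitters' processing notes. Not given in the sources used here are their versions, how linear values were obtained, and whether normalization was joint. The log2 of each intensity was taken. A gene took the value of its brightest probe set (highest mean over 12 arrays) among those the platform annotation pairs with exactly 1 gene, giving 18193 genes. Array medians ranged between 58.8 and 63.0.

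Groups were compared in 1 limma fit (version 3.58.1, R 4.3.3) over all arrays, two-sided, with Benjamini-Hochberg adjustment over all genes at 0.05; the fit was tested on simulated data. Alternatives covered probe set choice, normalization, dim genes, array weights, moderation, samples fitted, sets of arrays, replicate block, thresholds and leaving out each array. Promoter windows came from RefSeq (GRCm38.p6). The ligands, lists, motifs and alternatives were chosen with earlier results of these data known. Named genes are the 10 ligands, their receptors, up to 4 called members per pathway list, leading markers, sort genes and Ifng, and the genes most like each ligand; further markers were named after their values were seen. Python 3.11.15 with pandas 2.3.3 and numpy 2.4.6 did the rest.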

Additional observations from a re-analysis of the deposited data

Results flagged for a closer look

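Among 32 combinations of a ligand or receptor gene with a group of 4 or 5 arrays, 4 had an array that stood apart from the rest of its group; chance gives about 1 in 20. Ccl5 was highest on Tim-3+ replicate 2, at a log2 intensity of 13.37, with the next array at 13.24. Ccl5 was lowest on naive replicate 4, at 7.42, with the next array at 8.23; this array enters the spread behind the Ccl5 difference between the TIL groups. Ccr4 was lowest on Tim-3+ replicate 2, at 3.65, with the next at 4.90, both under log2 5.71. Ccr8 was lowest on naive replicate 1, at 2.77, with the next at 3.23, both under log2 5.71.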

How the results depend on the processing

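Of 507 values recomputed under alternatives other than leaving out an array, 470 kept direction and side of the threshold, 9 lost their call, 13 gained one and 15 changed sign. Leaving out 1 array kept 538 of 576, with 17 lost, 7 gained and 14 turned in sign. The calls between Tim-3+ and Tim-3- TIL numbered 2463 genes in all, 1590 within set A, 1384 at an adjusted p below 0.01 and 775 at 2-fold or more; without 1 array they numbered 1666 to 2447. Against naive cells 2183 of 6252 (Tim-3- TIL) and 2598 of 7554 (Tim-3+ TIL) also changed 2-fold; without 1 array 5136 to 6235 and 6858 to 7852 were called. Ligand calls ranged from 5 to 8 of 10 between TIL, 5 to 6 in Tim-3- TIL and 8 in Tim-3+ TIL over naive cells without 1 array.

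Signs turned only for log2 differences that did not pass an adjusted p of 0.05 in the main fit. For Tim-3+ against Tim-3- TIL these were Ccl22 within set A (0.13) and Cxcl9 on its most variable probe set (-0.013). For Tim-3- TIL against naive cells, Ccl6 was 0.069 as the mean of its probe sets and 0.28 on the most variable. Within set A, Ccl9 was -0.20, Ccl22 -0.20 and Ccr1 0.26. Ccl22 had an unadjusted limma p of 0.034 in this comparison over all arrays, and was 0.73 within set B (adjusted p = 0.00913). Cxcl9 was 0.18 as a mean, 0.37 on the most variable probe set, 0.020 with array weights and 0.047 within set B. For Tim-3+ TIL against naive cells, Ccl22 (-0.072) and Cxcl9 (-0.067) turned within set A. Without 1 array, Cxcl9 ran from -0.024 to 0.065 between TIL, from -0.052 to 0.054 in Tim-3- TIL against naive cells and from -0.032 to 0.074 in Tim-3+ TIL against naive cells. In Tim-3- TIL against naive cells, Ccr1 ran from -0.43 to 0.20 and Ccr3 from -0.11 to 0.19, and Xcr1 ran from -0.080 to 0.19 in Tim-3+ TIL against naive cells. The causes were not tested.

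Same-numbered arrays of different groups correlated above 0.1 in 8 of 10 pairs (-0.15 to 0.41). The other 2 pairs lie across sets A and B and were negative. Within a set, r was 0.13 to 0.41 for same-numbered pairs and 0.054 to 0.30 for differently numbered pairs. Differently numbered pairs across sets had r of -0.39 to -0.12. These r are of deviations from group means, and the sets were found in these same arrays. They therefore cannot decide whether the numbers pair the samples. The main fit did not pair them. The replicate block gave 2750, 6415 and 7681 genes called in the 3 comparisons (2463, 6252 and 7554 without it) and 8, 5 and 8 ligands. With that block, Cxcl9 was -0.023 in Tim-3+ TIL against naive cells and Ccr3 -0.034 in Tim-3- TIL against naive cells. Within set A, Tim-3- TIL had 1 array, assumed to vary like the others. Values carry no detection calls, so dim genes are limited by signal over background.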

Other observations

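Xcl1 had the largest difference between the 2 sets of arrays among 18193 genes in naive cells, at -2.21 (set A minus set B). The next by size were Fos (-2.14, with means of 6.87 in set A and 9.01 in set B), Hbb-b2 (1.97), Fosb (-1.95) and Arhgap33 (-1.93). Fos and Fosb are immediate early genes. These genes were picked after their values were seen. In Tim-3- TIL, Ccl3 had a set difference of 1.94, of rank 15 by size, with 1 array in set A.

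Ccl25, the ligand of Ccr9 made in thymus and gut, fell in both TIL populations relative to naive cells, by 0.78 on the log2 scale in Tim-3+ TIL (adjusted p = 9.19e-05) and by 0.84 in Tim-3- TIL. Ccrl2, a receptor that binds chemerin without signalling, averaged 10.58 ± 0.26 in Tim-3+ TIL, 7.92 ± 0.63 in Tim-3- TIL and 5.34 ± 0.37 in naive cells (SD, n = 4, 3 and 5), and rose by 2.66 in Tim-3+ over Tim-3- TIL (adjusted p = 1.53e-05).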
